A study of Mus musculus with 3 samples.

Results

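The classical and Qa-region MHC class I genes are described here in bone marrow Ly6G+ myeloid cells of mice that carried a vector for interleukin-27 (IL-27) or a control vector. The group holds 10 of the 16072 genes named in the expression table: the heavy chain genes H2-K1, H2-D1, H2-Q4, H2-Q5, H2-Q6, H2-Q7, H2-Q8, H2-Q9 and H2-Q10 and the light chain gene B2m. They were chosen by name, with their measured values in these same libraries known, so every difference given for them is a description. All libraries came from C57BL/6 mice, aged 6 to 10 weeks per the study's methods, bearing subcutaneous B16.F10 melanoma cells, given 1 week ahead of the vector, and so the controls carried tumour cells as well. AAV-IL27 is an adeno-associated virus injected into muscle that encodes both IL-27 subunits joined by a linker under the ubiquitous CAG promoter, and AAV-ctrl is the vector without that insert. The cells, labelled Ly6G+ and called Ly6G+ or Gr-1+ in the study's text, were collected 3 weeks after the vector. There were 2 AAV-ctrl libraries, AAV-ctrl 1 and AAV-ctrl 2, and 1 AAV-IL27 library, AAV-IL27 2. The table holds 1 further column, named as another AAV-IL27 replicate, that matches none of the labelled samples and was not used. The design text counts 4 mice but assigns 2 to AAV-ctrl and 1 to AAV-IL27. With a single AAV-IL27 library analysed, the treated group has no replicate error, so no test was run and no p-value is given. The spread between the AAV-ctrl libraries is the only measure of variation between mice.

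MHC class I molecules carry short peptides from inside the cell to its surface, where CD8+ T cells and natural killer cells read them. Each molecule is a heavy chain held by beta-2 microglobulin, the light chain encoded by B2m, and it leaves the endoplasmic reticulum only after the TAP transporter and the peptide loading complex have supplied a peptide. H2-K1 and H2-D1 encode the classical heavy chains of C57BL/6 mice, whereas the neighbouring H2-Q genes of the Qa region encode less polymorphic chains, among them Qa-2, which is made from the closely similar genes H2-Q6 to H2-Q9. Interferons and related cytokines are known to raise class I transcription in most cell types through interferon regulatory factors and NLRC5.

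The libraries were alike in size. Their depth, read from the step that 1 fragment makes in weakly expressed genes, was about 19300000 fragments for AAV-ctrl 1, 19400000 for AAV-ctrl 2 and 19100000 for AAV-IL27 2. FPKM, the number of fragments scaled by transcript length and by the mapped total of the library, is a level per length, so genes can be compared within a library. Neutrophil genes dominated every library: S100a9, a calcium-binding protein of neutrophil granulocytes, stood at 73508, 71786 and 68765 FPKM, and Ly6g, which encodes the sorted antigen, at 711.8, 766.1 and 586.3 FPKM. Markers of macrophages, B cells, erythroid cells and megakaryocytes were present in the AAV-ctrl libraries and mostly lower in AAV-IL27 2, while those of monocytes and of T and NK cells were not. Their values follow those of the class I genes.

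The light chain and the classical heavy chain H2-D1 were among the most abundant transcripts of these cells. In AAV-ctrl 1 and AAV-ctrl 2, H2-D1 had the 35th and the 27th highest FPKM, and B2m the 31st and the 29th. H2-K1, H2-Q10, H2-Q4 and H2-Q5 followed in that order in both AAV-ctrl libraries. The H2-Q6, H2-Q7, H2-Q8 and H2-Q9 rows lay lowest, between 1.40 and 5.91 FPKM. In AAV-IL27 2 the order of H2-K1, H2-Q10, H2-Q4 and H2-Q5 was the same, while the 4 low rows reached 30.2 to 45.6 FPKM and lay just under H2-Q5 at 58.1 FPKM.

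**Figure D1:**
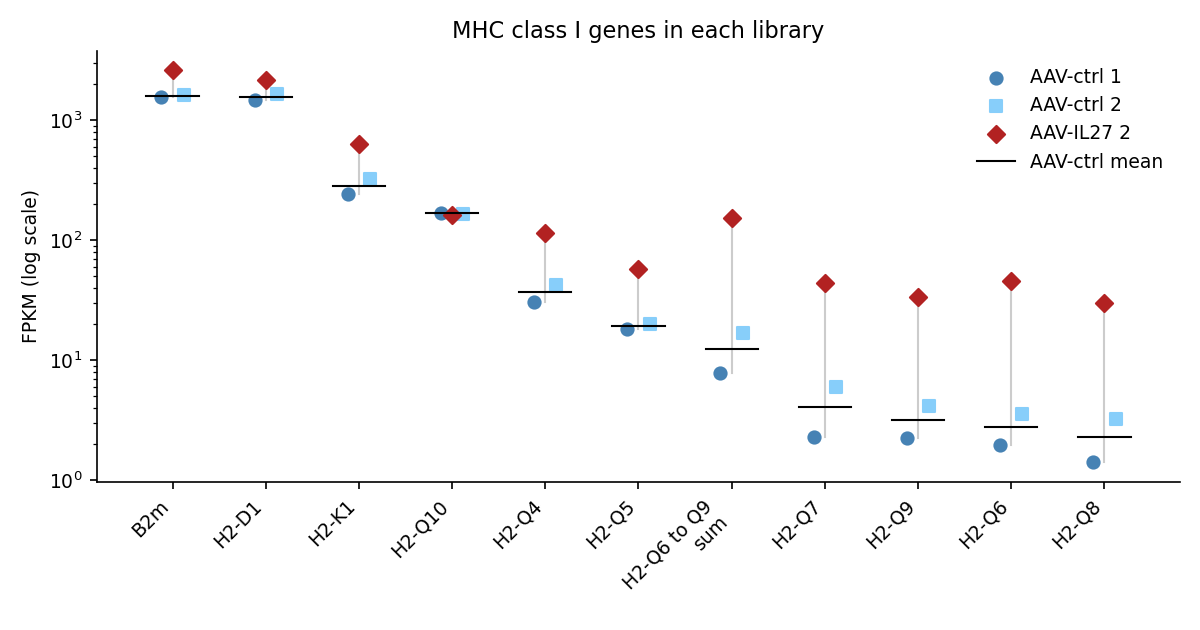
FPKM of each class I gene and of the sum of H2-Q6 to H2-Q9 in the 3 libraries, on a log axis, with genes ordered by the AAV-ctrl mean (black bar, n = 2). The AAV-IL27 2 diamond lies above both AAV-ctrl points for 9 of the 10 genes and for the sum, farthest for H2-Q6 to H2-Q9, and level with them for H2-Q10.

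Of the 10 genes, 9 were higher in AAV-IL27 2 than in both AAV-ctrl libraries, where 38.9% of all 9130 genes that passed the filter were. The filter kept genes whose FPKM averaged 1 or more over the libraries. A gene was counted as higher when its log2(FPKM + 1) lay at least 1 unit above both AAV-ctrl libraries, which 6 of the 10 members did (H2-Q4, H2-Q5, H2-Q6, H2-Q7, H2-Q8 and H2-Q9). Over all genes, 28 did, or 0.307%, and 6 of those 28 are the members just named. No member lay at least 1 unit below both libraries, against 2.32% of all genes. Since the members were chosen on this contrast, these counts are set beside the background without being read as a result. The median difference of the 10 members, AAV-IL27 2 minus the AAV-ctrl mean, was 1.60 on the log2(FPKM + 1) scale, and the median over all genes was -0.01. All 10 members passed the filter on low values, also when it was applied to the AAV-ctrl mean alone. Without AAV-ctrl 2, 49 genes and 7 members counted as higher, and without AAV-ctrl 1, 40 genes and 6 members.

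H2-K1, the heavy chain of the classical H-2K molecule, was measured at 243.0 FPKM in AAV-ctrl 1, 322.3 in AAV-ctrl 2 and 632.9 in AAV-IL27 2. The AAV-ctrl values differed by 1.33-fold and both lay well under the AAV-IL27 value, which was 2.24 times their mean. The log2 difference was 1.17, but the distance to AAV-ctrl 2 alone was 0.97, which left H2-K1 just outside the limit of 1 unit, whereas H2-Q4 at 1.41 and H2-Q5 at 1.49 were the members closest inside it. H2-K1 passed that limit when AAV-ctrl 2 was left out, with a difference of 1.38, and after either rescaling of the libraries.

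H2-D1, the heavy chain of the classical H-2D molecule, stood at 1479 FPKM in AAV-ctrl 1, at 1670 in AAV-ctrl 2 and at 2173 in AAV-IL27 2. The groups did not overlap, but the difference was the smallest among the members that were higher, at 0.47 on the log2 scale or 1.38 times the AAV-ctrl mean. Between the AAV-ctrl libraries the log2 values of H2-D1 differed by 0.18. The level of H2-D1 was 6.08 and 5.18 times that of H2-K1 in the AAV-ctrl libraries and 3.43 times in AAV-IL27 2, so the 2 classical genes lay closer together there.

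H2-Q4, a heavy chain gene of the Qa region, was measured at 30.8 FPKM in AAV-ctrl 1, 42.6 in AAV-ctrl 2 and 115.1 in AAV-IL27 2. H2-Q5, which GENCODE M21 lists as a polymorphic pseudogene, stood at 18.2, 20.1 and 58.1 FPKM in the same order. In both genes the AAV-IL27 value was about 3 times the AAV-ctrl mean, with folds of 3.13 and 3.04 and log2 differences of 1.64 and 1.56, and the groups did not overlap. The ratio of H2-Q4 to H2-Q5 was 1.69 and 2.12 in the AAV-ctrl libraries and 1.98 in AAV-IL27 2, which lies between them.

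H2-Q6, one of the Qa-2 genes, had 1.94 FPKM in AAV-ctrl 1, 3.56 in AAV-ctrl 2 and 45.6 in AAV-IL27 2. These values correspond to about 34 fragments (95% exact Poisson interval 23.5 to 47.5), 63 fragments (48.4 to 80.6) and 793 fragments (738.8 to 850.2), intervals that cover counting error only. Its difference of 3.67 on the log2(FPKM + 1) scale was the largest of all 9130 genes. H2-Q7, which encodes the best known Qa-2 chain, had 2.28, 5.91 and 43.9 FPKM, with a log2 difference of 3.24. Among the members the AAV-ctrl libraries differed most at this gene, by 2.59-fold, and AAV-IL27 2 was 7.43 times the higher of them.

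For H2-Q8 the values were 1.40 FPKM in AAV-ctrl 1, 3.20 in AAV-ctrl 2 and 30.2 in AAV-IL27 2. For H2-Q9, the other main Qa-2 gene, they were 2.22, 4.15 and 33.6 FPKM. Their log2 differences were 3.30 and 3.09. H2-Q6, H2-Q8, H2-Q7 and H2-Q9 held the first 4 places when all genes were ranked by that difference. In each of the 4 rows AAV-ctrl 2 was above AAV-ctrl 1 and AAV-IL27 2 far above both.

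Many fragments of H2-Q7 and H2-Q9 cannot be assigned to 1 of these genes, and the rule by which the deposited values split shared fragments is not given in the sources used here. Of the 100-base stretches of the H2-Q7 transcript, 88.4% also occur in the transcript named by the H2-Q9 row, and 86.8% of the stretches of that transcript occur in H2-Q7. GENCODE M21 assigns the transcript of the H2-Q9 row to H2-Q7 itself. H2-Q6 shared 19.3% of its stretches with another member, H2-Q5 shared 6.72% and H2-D1 1.55%, while H2-K1, H2-Q4, H2-Q10 and B2m shared none at this length. The read length is not given in the sources used here, and with 50-base stretches H2-Q6 shared 36.8%, H2-Q5 20.2%, H2-D1 10.8%, H2-K1 8.79%, H2-Q4 6.25%, H2-Q10 5.20% and B2m none. Counted against any other GENCODE gene, member or not, the 50-base share was 24.3% for H2-Q4, 35.4% for H2-Q5, 14.3% for H2-D1 and 11.0% for H2-Q10. No transcript was matched for H2-Q8. The single values of H2-Q7 and H2-Q9 are therefore uncertain, those of H2-Q6, H2-Q5 and H2-Q4 in part, and the 4 rows H2-Q6 to H2-Q9 were also added together. The sum removes the split among these rows only. Of the 50-base stretches of H2-Q6, H2-Q7 and H2-Q9, 11.9%, 8.49% and 8.34% also occur in H2-D1. In H2-Q5, 12.7%, 11.3% and 11.1% of them occur. The effect of this sharing on the sum was not tested.

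**Figure D2:**
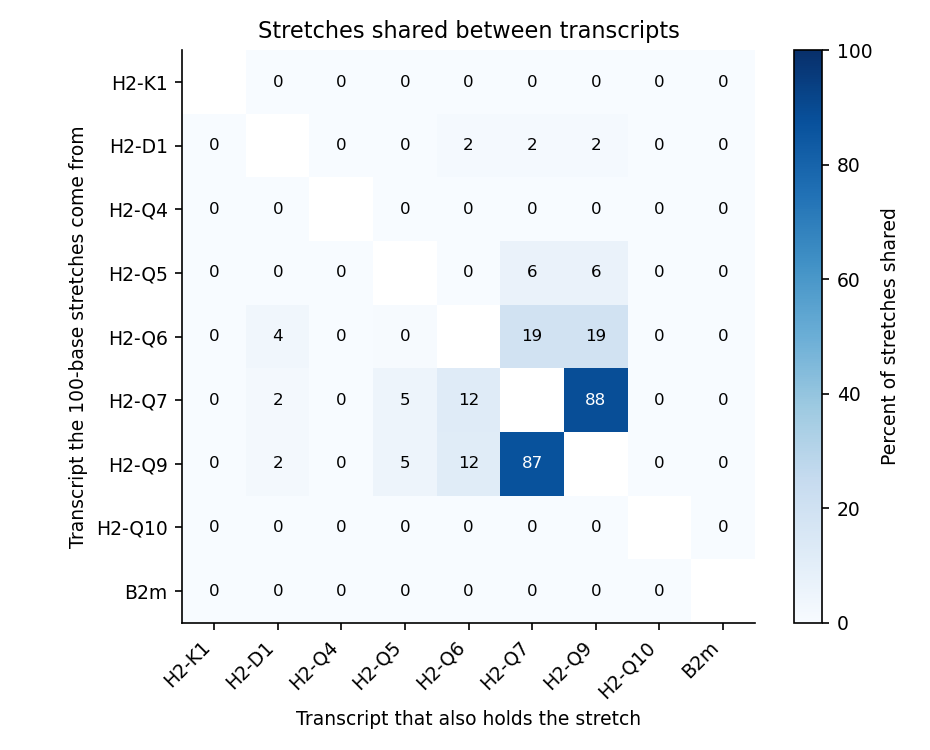
Percent of the 100-base stretches of each member's transcript (rows, GENCODE M21) that occur unchanged in the transcript of another member (columns), with H2-Q8 left out for lack of a matched transcript. H2-Q7 and H2-Q9 share 88.4% and 86.8% of their stretches, H2-Q6 shares 18.8% with each of them, and H2-K1, H2-Q4, H2-Q10 and B2m share none.

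The sum of H2-Q6 to H2-Q9 was 7.84 FPKM in AAV-ctrl 1, 16.8 in AAV-ctrl 2 and 153.3 in AAV-IL27 2. The AAV-ctrl libraries differed by 2.15-fold, and AAV-IL27 2 was 9.11 times the higher and 19.6 times the lower of them. The log2 difference from the AAV-ctrl mean was 3.62, between 3.11 against AAV-ctrl 2 and 4.13 against AAV-ctrl 1. Within the sum, the H2-Q6 row made up 24.7%, 21.2% and 29.7%, the H2-Q7 row 29.1%, 35.1% and 28.6%, the H2-Q8 row 17.9%, 19.0% and 19.7% and the H2-Q9 row 28.3%, 24.7% and 21.9%. No row took over the sum in any library.

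H2-Q10, which encodes a secreted class I protein made mainly by the liver, was the exception. It had 169.9 FPKM in AAV-ctrl 1, 165.8 in AAV-ctrl 2 and 161.5 in AAV-IL27 2. The 3 values lay within a narrow range, with AAV-IL27 2 the lowest, and the log2 difference of -0.05 became 0.00 when libraries were rescaled by the median ratio. The liver genes Alb, Apoa1 and Ttr are not among the genes of the table. Of the 100-base stretches of H2-Q10, 2.84% occur in another GENCODE gene, none of them in another member.

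B2m, the light chain that all of these heavy chains need, was measured at 1578 FPKM in AAV-ctrl 1, 1640 in AAV-ctrl 2 and 2614 in AAV-IL27 2. The AAV-ctrl values were close together, 0.06 apart on the log2 scale, and AAV-IL27 2 was above both, at 1.62 times their mean and a log2 difference of 0.70. The 9 heavy chain genes summed to 1948, 2238 and 3294 FPKM, 1.57 times higher in AAV-IL27 2 than in the AAV-ctrl mean. B2m amounted to 0.810, 0.733 and 0.794 of that sum, so the AAV-IL27 ratio lay between the AAV-ctrl ratios.

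The make-up of the heavy chain transcripts differed between the groups. H2-D1 held 75.9% and 74.6% of heavy chain FPKM in AAV-ctrl 1 and AAV-ctrl 2 and 66.0% in AAV-IL27 2. The share of H2-K1 was 12.5%, 14.4% and 19.2%, and that of H2-Q6 to H2-Q9 together 0.402%, 0.752% and 4.65%. The share of H2-Q4 was 1.58%, 1.90% and 3.49% and that of H2-Q5 0.934%, 0.897% and 1.76%, while H2-Q10 held 8.72%, 7.41% and 4.90%. H2-K1 was 31.0 and 19.2 times as abundant as the H2-Q6 to H2-Q9 sum in the AAV-ctrl libraries and 4.13 times in AAV-IL27 2. The classical genes thus still made up 85.2% of heavy chain FPKM in AAV-IL27 2, against 88.4% and 89.0%.

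The AAV-ctrl libraries also differed from each other in these genes. AAV-ctrl 2 was above AAV-ctrl 1 in 9 of the 10 members, where 50.3% of all genes were, and the exception was H2-Q10. The median difference between the AAV-ctrl libraries was 0.43 for the members and 0.00 over all genes. For 4 members, H2-Q6 to H2-Q9, this difference exceeded 0.57, the 99th percentile of its size over all genes.

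**Figure D3:**
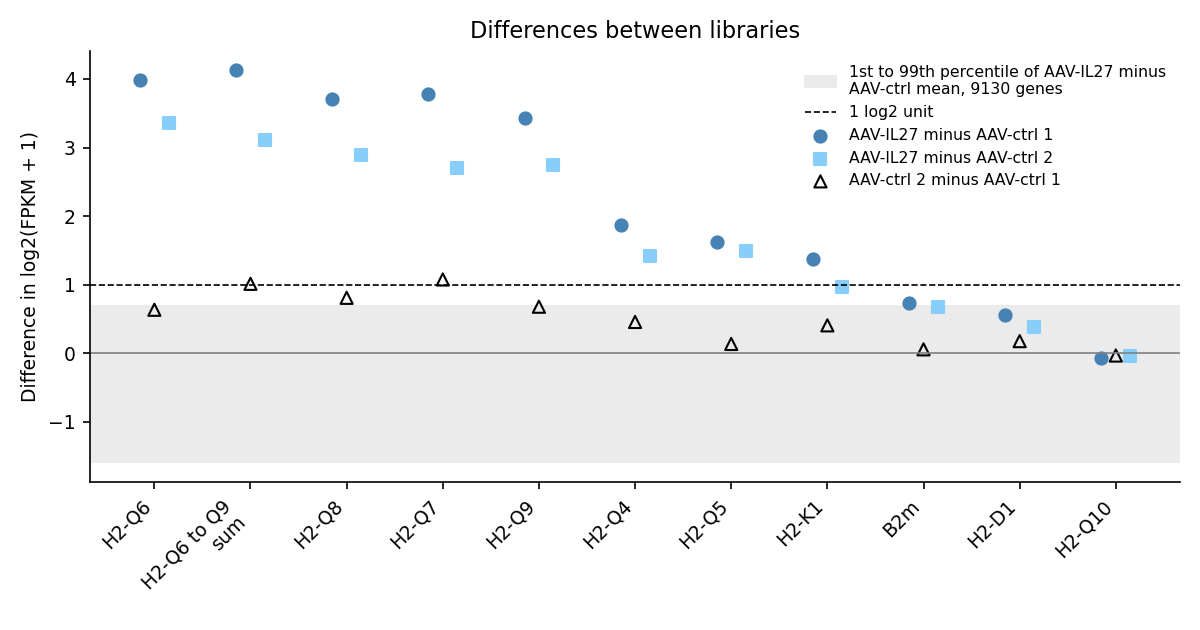
Difference in log2(FPKM + 1) of AAV-IL27 2 from each AAV-ctrl library (filled points) and of AAV-ctrl 2 from AAV-ctrl 1 (open triangles), with the dashed line at 1 unit and the grey band from the 1st to the 99th percentile of the AAV-IL27 2 difference over 9130 genes. H2-Q6 to H2-Q9 lie at 2.70 and above in both comparisons, H2-K1 falls on either side of the line, and the open triangles of H2-Q6 to H2-Q9 lie above those of the other members.

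Most members lie in 1 stretch of chromosome 17. In GENCODE M21 (GRCm38), H2-K1 lies apart from the others, at chr17:33996017-34000347 on the minus strand. H2-D1 (chr17:35262730-35267499), H2-Q4 (chr17:35379617-35385290), H2-Q5 (chr17:35394126-35397800), H2-Q6 (chr17:35424850-35430055), H2-Q7 (chr17:35439155-35443773) and H2-Q10 (chr17:35470089-35474563) follow each other on the plus strand within 212 kb, and B2m lies at chr2:122147686-122153083 on the plus strand. No position was used for H2-Q8 and H2-Q9. From 100 kb before H2-D1 to 100 kb after H2-Q10, 9 other genes passed the filter. None of these 9 was at least 1 unit above or below both AAV-ctrl libraries, which 0.307% and 2.32% of all genes were, 3 lay above both by any amount (Lst1, Ltb and Tnf; 38.9% of all genes), and these differences ran from -1.01 for Aif1 to 0.64 for Ltb with a median of -0.00.

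Promoter windows from RefSeq (GRCm38.p6), 250 bases before to 50 after the transcription start, were matched for 7 of the 10 members, namely H2-K1, H2-D1, H2-Q4, H2-Q6, H2-Q7, H2-Q10 and B2m. Class I promoters are known for an enhancer with a kappa B site and an interferon-stimulated response element, followed by the X2 and Y boxes of the module on which NLRC5 acts. The letters searched, on both strands, were GGGATTCCC for the kappa B site, GAAANNGAA and GAANNGAAA for the response element, TGACG for the X2 box, ATTGG for the Y box and TTCNNNGAA for a STAT site, of which GAANNGAAA was added after the promoters were seen. The 250 bases before the start are printed for 5 genes, a classical gene (H2-K1, 1 of 2 windows listed), the rows with the largest difference that have a window (H2-Q6 and H2-Q7), the heavy chain gene without a difference (H2-Q10) and the light chain gene (B2m). Matches are in capitals and may be on either strand.
H2-K1, chr17:34000348-34000597, minus strand: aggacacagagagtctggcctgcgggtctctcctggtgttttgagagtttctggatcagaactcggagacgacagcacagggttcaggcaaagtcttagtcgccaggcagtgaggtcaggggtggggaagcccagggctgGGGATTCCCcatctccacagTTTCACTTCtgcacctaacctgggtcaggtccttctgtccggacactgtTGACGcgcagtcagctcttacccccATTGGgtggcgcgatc
H2-Q6, chr17:35424600-35424849, plus strand: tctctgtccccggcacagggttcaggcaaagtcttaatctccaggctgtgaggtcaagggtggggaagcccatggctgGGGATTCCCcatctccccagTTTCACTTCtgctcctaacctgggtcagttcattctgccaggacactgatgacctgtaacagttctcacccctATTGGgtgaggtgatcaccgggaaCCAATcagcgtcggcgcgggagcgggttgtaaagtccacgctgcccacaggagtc
H2-Q7, chr17:35438905-35439154, plus strand: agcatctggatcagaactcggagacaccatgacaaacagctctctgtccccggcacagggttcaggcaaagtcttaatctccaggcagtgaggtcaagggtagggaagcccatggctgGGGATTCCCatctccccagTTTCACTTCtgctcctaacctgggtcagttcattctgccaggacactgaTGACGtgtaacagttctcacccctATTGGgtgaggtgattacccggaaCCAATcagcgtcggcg
H2-Q10, chr17:35469839-35470088, plus strand: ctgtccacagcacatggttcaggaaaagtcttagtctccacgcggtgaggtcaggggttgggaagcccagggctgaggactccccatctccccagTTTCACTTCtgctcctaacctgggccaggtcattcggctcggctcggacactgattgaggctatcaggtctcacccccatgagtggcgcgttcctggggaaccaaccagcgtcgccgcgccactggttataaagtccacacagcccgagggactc
B2m, chr2:122147437-122147686, plus strand: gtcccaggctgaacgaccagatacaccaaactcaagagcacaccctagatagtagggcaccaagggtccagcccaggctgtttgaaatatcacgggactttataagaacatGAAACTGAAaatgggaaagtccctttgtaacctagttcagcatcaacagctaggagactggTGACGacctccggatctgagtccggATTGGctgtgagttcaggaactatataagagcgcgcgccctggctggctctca

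GGGATTCCC was found once each in H2-K1, H2-D1, H2-Q6 and H2-Q7 and in none of H2-Q4, H2-Q10 and B2m, against 0.353% of the 32851 promoter windows searched. Only these exact letters were searched, so a site of another spelling or spacing was missed. The H2-Q4 window reads gggatttccc, with an added t, just before its response element match. GAANNGAAA was found in all 6 heavy chain windows, H2-Q10 included, and in 7.52% of all windows, and the mirrored GAAANNGAA in B2m and in 8.56% of all. ATTGG, present in 37.4% of all windows, occurred in each of the 7 windows except that of H2-Q10. TGACG, present in 20.8%, occurred in H2-K1, H2-D1, H2-Q4, H2-Q7 and B2m and not in H2-Q6 or H2-Q10. Read in the direction of the gene, TGACG lay before ATTGG in H2-K1, H2-D1, H2-Q7 and B2m and just after it in H2-Q4. The H2-Q4 match therefore does not stand in the order of the X2 and Y boxes. TTCNNNGAA, found in 8.30% of all windows, occurred in none of the 7. H2-Q10 therefore held the response element letters alone, whereas H2-Q6 and H2-Q7, whose aligned windows are 97.2% identical, differed in the TGACG match. H2-K1 and H2-Q10 were 82.7% identical, with gaps inside the alignment counted as differences in both figures. These are letter matches and say nothing about which factors bound.

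**Figure D4:**
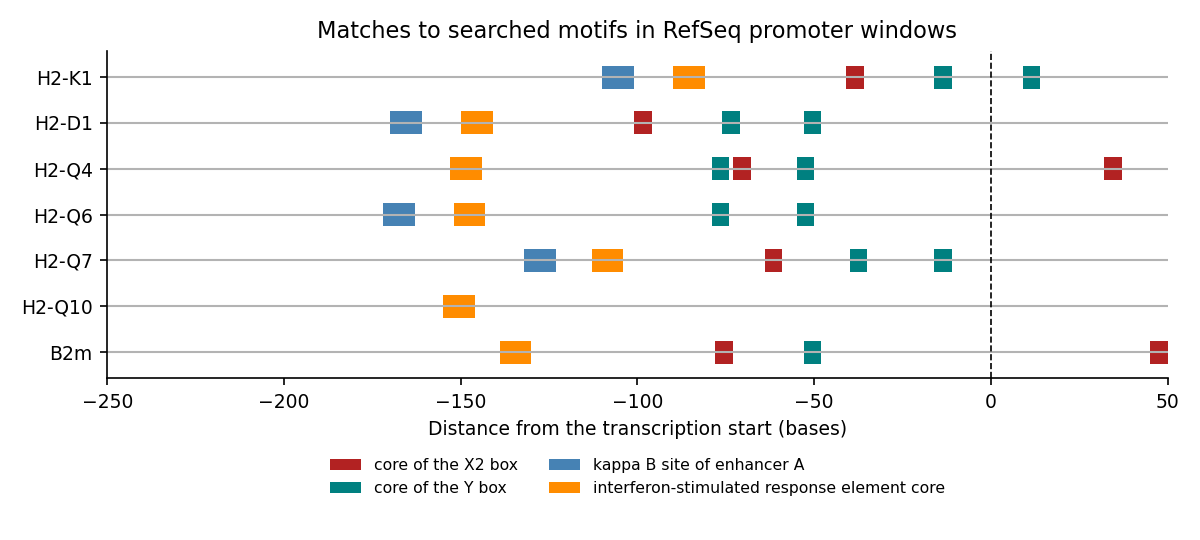
Position of each match relative to the transcription start (dashed line, in bases) in the RefSeq promoter windows of 7 members, coloured by the element the letters stand for, with both forms of the response element in 1 colour. The 4 windows with a kappa B match (H2-K1, H2-D1, H2-Q6 and H2-Q7) carry the response element just downstream of it, and the H2-Q10 window holds the response element match alone.

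The genes that load class I molecules were set beside the heavy chains. Of 8 peptide loading genes, none was at least 1 unit above or below both AAV-ctrl libraries, which 0.307% and 2.32% of all genes were. By any amount, 3 lay above and 4 below both, as did 38.9% and 41.9% of all genes. The median difference of these 8 genes was 0.05, or -0.06 without AAV-ctrl 1. Tap1, a subunit of the peptide transporter, had the highest difference, 0.67, with 46.4 FPKM in AAV-ctrl 1, 50.8 in AAV-ctrl 2 and 77.6 in AAV-IL27 2. Calr, the chaperone calreticulin, had the lowest, -0.30, with 90.1, 97.8 and 75.8 FPKM. The 5 immunoproteasome genes, whose products cut peptides suited to class I, had a median of 0.11. None was at least 1 unit above or below both AAV-ctrl libraries (0.307% and 2.32% of all genes). By any amount, 3 lay above and 1 below both (38.9% and 41.9% of all genes). Set against AAV-ctrl 2 alone the immunoproteasome median was 0.0042, and against AAV-ctrl 1 alone 0.19. Their differences ran from -0.10 for Psmb10 to 0.32 for Psmb9.

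Among 16 genes for regulators of class I transcription the median difference was 0.09 (0.06 without AAV-ctrl 1). None was at least 1 unit above or below both AAV-ctrl libraries, which 0.307% and 2.32% of all genes were. By any amount, 9 lay above and 2 below both, as did 38.9% and 41.9% of all genes. The highest was Nlrc5, the class I transactivator, at 1.78, 2.83 and 5.06 FPKM and a difference of 0.89, and AAV-ctrl 2 lay between AAV-ctrl 1 and AAV-IL27 2. The lowest was Nfyb, a subunit of the factor that binds the Y box, at -0.18. Irf1, an interferon regulatory factor, lay above both AAV-ctrl libraries with a difference of 0.28. The receptor genes Il27ra and Il6st were below 1 FPKM in every library, at 0.14, 0.26 and 0.04 FPKM for Il27ra and 0.82, 0.80 and 0.43 FPKM for Il6st.

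The remaining class I-like genes differed in both directions. Of 16 in the list, 12 were in the table and 8 passed the filter, with a median difference of 0.03, or -0.05 against AAV-ctrl 2 alone and 0.12 against AAV-ctrl 1 alone. Of these 8, 3 lay above both AAV-ctrl libraries (H2-T22, H2-T10 and H2-M3), as did 38.9% of all genes. Another 3 lay below both (Fcgrt, Hfe and Cd1d1), as did 41.9% of all genes. H2-T22, a nonclassical T-region gene, had the highest difference, 0.82, with 28.5, 32.3 and 54.2 FPKM. H2-T10 and H2-M3 followed at 0.76 and 0.69. Fcgrt, the heavy chain of the neonatal Fc receptor, which also pairs with B2m, was the only gene of the list past 1 unit and was lower, as were 2.32% of all genes. It had 14.3, 16.2 and 2.62 FPKM and a difference of -2.16. Of the receptors that read class I, 4 passed the filter, and their median was -0.10, from -0.59 for Klra17 to -0.01 for Pirb, the inhibitory receptor PIR-B of myeloid cells. The 6 class II genes that passed the filter, which serve presentation to CD4+ T cells, lay below both AAV-ctrl libraries, as 41.9% of all genes did, with a median of -0.46, from -0.68 for Cd74 to -0.33 for H2-DMb1. Class II genes were also higher in AAV-ctrl 2 than in AAV-ctrl 1, with a median difference of 0.57 between the AAV-ctrl libraries, and the class II median was -0.13 against AAV-ctrl 1 alone and -0.75 against AAV-ctrl 2 alone.

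A list of 12 interferon-induced genes lay closer to the class I genes. Of the 11 that passed the filter, 10 were above both AAV-ctrl libraries, against 38.9% of all genes, with a median difference of 0.64. Cxcl10 alone was at least 1 unit above both, as were 0.307% of all genes. Ifit3, at 1.47, and Ifit1, at 1.07, differed from the AAV-ctrl mean by more than 1 unit but were less than 1 unit above AAV-ctrl 2. Cxcl10, a chemokine for activated T cells, had 1.29, 2.85 and 11.8 FPKM and a difference of 2.11, whereas the related Cxcl9 had the lowest difference, -0.25. The list differed between the AAV-ctrl libraries in the same direction as the class I genes, by a median of 0.47. Its median difference was 0.46 against AAV-ctrl 2 alone and 0.87 against AAV-ctrl 1 alone.

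**Figure D5:**
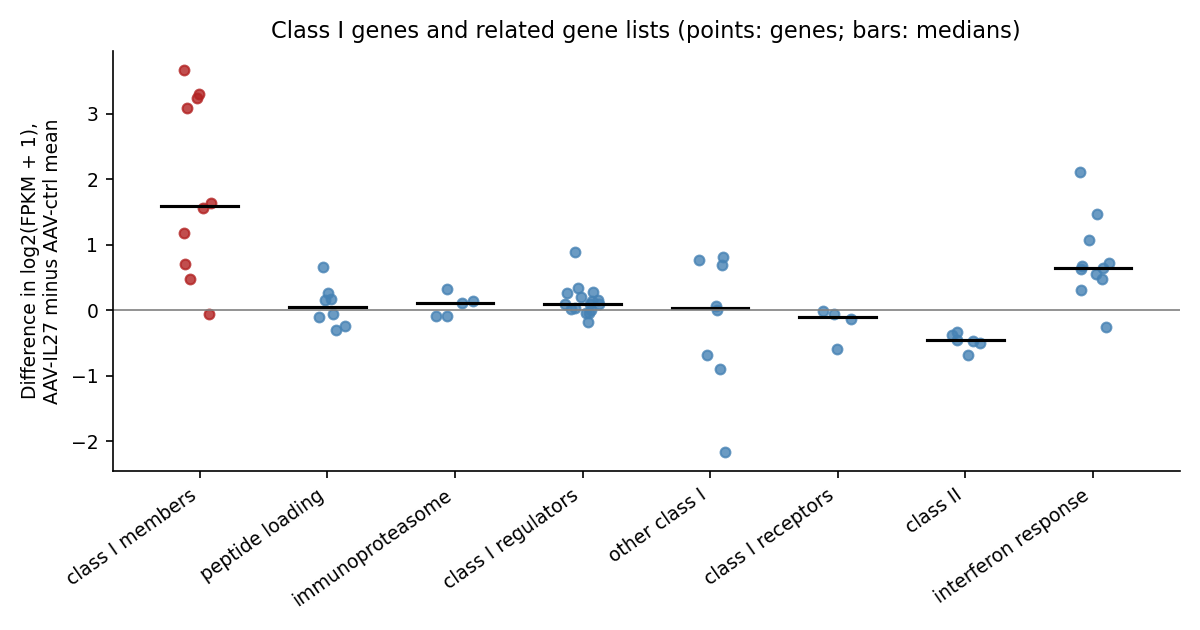
Difference in log2(FPKM + 1), AAV-IL27 2 minus the AAV-ctrl mean, for the 10 members (red) and for the genes of 7 related lists that passed the filter (blue), with black bars at the medians. The members' median of 1.60 is set beside 0.05 for peptide loading, 0.64 for the interferon response and -0.46 for class II, and the lowest point of the other class I genes is Fcgrt at -2.16.

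Over the 3 libraries and among genes other than the members, the profiles most like that of the H2-Q6 to H2-Q9 sum, by Euclidean distance between centred log2(FPKM + 1) values, were those of Cxcl10 at 1.25, Egr1 at 1.35, Ccl3 at 1.56, Ccl4 at 1.64 and Csf1 at 1.65. The differences of these 5 ran from 1.88 for Ccl4 to 2.40 for Egr1, against 3.62 for the sum. No gene outside the members could reach the sum, since H2-Q6 to H2-Q9 ranked above all other genes. The profiles most like that of H2-K1 lay much nearer, with Ifit1 at 0.089, Ifit2 at 0.126, Ifi27l2a at 0.136, Trex1 at 0.138 and Itgb7 at 0.162. With 3 libraries such distances rest on few points and describe these libraries only.

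Markers of other cell types differed between the same libraries. Of 9 macrophage genes, 8 were at least 1 unit below both AAV-ctrl libraries, as were 2.32% of all genes, and their summed level was 600.3 FPKM in AAV-ctrl 1, 634 in AAV-ctrl 2 and 172 in AAV-IL27 2, with C1qa at 137.5, 145.7 and 39.4 FPKM and C1qc at 123.7, 136.7 and 33.2 FPKM. All 4 B cell genes that passed the filter were lower in the same way, and the 6 genes of the B cell list summed to 26.5, 33.5 and 3.88 FPKM, with Cd79a at 9.78, 13.6 and 1.49 FPKM and Cd79b at 9.81, 11.0 and 1.81 FPKM. The same held for 6 of 6 erythroid genes, at 16083, 10706 and 1831 FPKM in sum, led by Hba-a1 at 8136, 5547 and 957.7 FPKM and Hbb-bs at 6299, 4074 and 688.9 FPKM. It held for 3 of 4 megakaryocyte genes, at 48.2, 53.5 and 6.84 FPKM in sum, led by Ppbp at 29.6, 29.1 and 2.99 FPKM and Pf4 at 11.7, 14.0 and 1.53 FPKM. None of these markers was at 0 in any library.

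The lists of the sorted cell type and of monocytes, T cells and NK cells differed less. The 10 neutrophil genes summed to 174829, 170616 and 165479 FPKM, led by S100a9 and by its partner S100a8 at 41371, 38113 and 38320 FPKM. The median difference of this list was -0.05, and -0.09 without AAV-ctrl 2, -0.01 with equal FPKM totals and 0.0049 by median ratios. None of its genes was past 1 unit, where 0.307% of all genes were higher and 2.32% lower. The 5 monocyte genes summed to 1106, 1166 and 1228 FPKM with a median of 0.12, or 0.08 against AAV-ctrl 2 alone and 0.34 against AAV-ctrl 1 alone, led by Ly6c2 at 1023, 1086 and 1145 FPKM and Csf1r at 78.6, 74.5 and 75.4 FPKM. Of these 5 genes, 3 lay above both AAV-ctrl libraries and none below both, where 38.9% and 41.9% of all genes did. The 3 were Ly6c2 and the weakly expressed Ccr2 and F13a1, whose differences were 0.53 and 0.46. The 6 genes of the T and NK cell list summed to 10.5, 11.3 and 11.6 FPKM, led by Cd3d at 7.40, 6.35 and 7.06 FPKM and Nkg7 at 2.18, 4.03 and 3.58 FPKM. The part of the differing cell types in the class I values was not tested, and in such bulk libraries fewer cells of a type and less RNA per cell cannot be told apart.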

How the data were processed

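RNA-seq was analysed for 3 libraries of bone marrow Ly6G+ cells, 2 AAV-ctrl and 1 AAV-IL27, grouped by the sample labels. Per the labels, the authors extracted RNA with Trizol, selected mRNA with oligo dT, marked the second cDNA strand with dUTP and sequenced on the DNBSEQ platform, and the submitters' processing notes name the genome build mm10. The authors deposited FPKM values to 2 decimals in 16073 rows. Without a gene symbol, 1 row was dropped, and 1 further per-sample column, named as another AAV-IL27 replicate but matching none of the labelled samples, was not used. The aligner, the counting tool and the annotation version are not given in the sources used here.

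Values were compared as log2(FPKM + 1), a pseudocount of 1, over the 9130 genes whose FPKM averaged 1 or more, and a gene counted as higher or lower when at least 1 unit from both AAV-ctrl libraries in the same direction. On simulated data this call and the depth estimate were run and recovered what had been put in. The simulated noise was smaller than the spread between the AAV-ctrl libraries, and the planted changes were large. Only genes well above the filter were changed. The simulation therefore checked the code and not calls near the limit or at low levels. Depth was fitted over 10934 genes with 1 transcript, with 70 nt taken from each length, and placed 66.8%, 71.5% and 63.3% of 259, 249 and 237 low values within 0.1 of a whole fragment in AAV-ctrl 1, AAV-ctrl 2 and AAV-IL27 2. Fragment numbers are therefore estimates, and no count test was run. Shared stretches were found by exact match in GENCODE M21 transcripts, and promoters were read from RefSeq windows and aligned in pairs with free end gaps.

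The members and the gene lists were chosen with earlier results of these data known. Genes named besides the members are those of a class I list past 1 unit, the highest and the lowest of each such list, the 2 most abundant genes of each cell type list and the 5 profiles most like H2-K1 and the H2-Q6 to H2-Q9 sum. Ly6g, Ifit1, Ifit3, Irf1, Il27ra, Il6st, H2-T10, H2-M3, Hfe, Cd1d1, Ccr2, F13a1 and the neighbouring genes were named after their values were seen. Pseudocounts of 0.1 and 0.01, other filters and limits and 2 rescalings were tried, as was omitting either AAV-ctrl library. Tables were handled with pandas 2.3.3 and numpy 2.4.6 in Python 3.11.15, intervals came from scipy 1.17.1, and plots from matplotlib 3.10.9.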

Additional observations from a re-analysis of the deposited data

How the results depend on the processing

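Under the alternatives, the difference of the H2-Q6 to H2-Q9 sum ran from 3.11 without AAV-ctrl 1 to 4.13 without AAV-ctrl 2, and 59 of 60 differences of single members kept their sign, the exception being H2-Q10. B2m moved by more than the SD of its AAV-ctrl log2 values under rescaling to equal totals and by median ratios, to 0.74 and 0.76, and H2-Q10 to -0.01 and 0.00; the other members did not. Rescaling shifted the median of all genes by 0.04 and 0.05. The count of members past the limit was 7 with either rescaling, 8 at a limit of 0.5 and 4 at a limit of 2 (H2-Q6 to H2-Q9), and between 6 and 7 with 1 AAV-ctrl library left out. Over all genes, 46 were higher with a pseudocount of 0.01, 143 at a limit of 0.5, 5 at a limit of 2, and 40 to 49 with 1 AAV-ctrl library left out, against 28. Lower genes numbered 397 and 426 with pseudocounts of 0.1 and 0.01, 93 among genes averaging 5 FPKM or more, 640 and 39 at limits of 0.5 and 2, and 243 to 294 with 1 AAV-ctrl library left out, against 212. With 1 AAV-ctrl library left out, the peptide loading median ran from -0.063 to 0.10 and the class I receptor median from -0.14 to -0.071. The class I receptor median was -0.058 with equal totals and -0.040 by median ratios, and the class I regulator median 0.15 by median ratios. With equal totals and by median ratios, the peptide loading median was 0.084 and 0.10. In the same order, the immunoproteasome median was 0.15 and 0.17 and the median of the other class I genes 0.073 and 0.091. Of 42 medians of cell type lists under alternatives, 9 moved by more than the AAV-ctrl SD. The cause of these shifts was not tested. No paired analysis was possible because only number 2 occurs in both groups. A single AAV-IL27 library, the only one analysed, gives no replicate error, and the low AAV-ctrl levels of H2-Q6 to H2-Q9 rest on few fragments.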
